A study of Homo sapiens with 30 samples.

Results

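GFPT2, its paralogue GFPT1 and 5 further genes were followed through 18 lists of ChIP-Seq peaks from MDA-MB-231 cells, a triple-negative breast cancer line. The 5 genes serve to make UDP-GlcNAc or to attach GlcNAc to proteins or remove it. The 7 genes, GFPT1, GFPT2, GNPNAT1, PGM3, UAP1, OGT and OGA, are among 20098 protein-coding genes with an annotated start site on the autosomes and chromosome X. They were chosen by name, and GFPT2 was picked because its RNA polymerase II (Pol II) peak was absent from SAP30-KO1 cells in an earlier reading of these lists. The Pol II values of GFPT2 are therefore a description with no test.

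The question was whether the loss of Pol II at GFPT2 was also seen at its paralogue and along the pathway. SAP30, SIN3A and SIN3B, subunits of the SIN3 corepressor complex, were immunoprecipitated from parental cells. Pol II, trimethylated histone H3 lysine 4 (H3K4me3) and acetylated histone H3 lysine 9 (H3K9Ac) were immunoprecipitated from parental cells and from SAP30-KO1 cells, in which SAP30 was deleted by CRISPR/Cas9 and which are a mixture of several single-cell clones. Each of the 9 groups held 2 libraries, which the labels number but do not tie to separate cultures, so the p-values measure the spread between these libraries, which may be technical. The lists do not include SAP30 in SAP30-KO1 cells, so the knockout could not be checked here.

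The lists held 10861 to 54622 summits, the positions of highest signal of each peak. Sequencing depth is unknown, and a peak score depends on it. Each summit was therefore placed by its score within its own list, from 0%, the best score, to 100%, the last. A rank of 27.2% thus means that 27.2% of the other summits of that list scored better. A gene had a promoter peak when a summit lay within 1000 bp of one of its start sites, and its best summit gave its rank. As a check of the line, VIM, CD44 and AXL, markers of mesenchymal breast cancer lines, had promoter peaks in 12 of the 12 Pol II, H3K4me3 and H3K9Ac lists. GATA3 had none, CDH1 had 2 and ESR1 had 6, whereas EPCAM, an epithelial marker, had all 12.

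The hexosamine pathway diverts fructose phosphate from glycolysis and, with nitrogen from glutamine, builds UDP-GlcNAc, the sugar donor for glycosylation. GFPT1 and GFPT2 encode the amidotransferases of the first, rate-limiting step. GNPNAT1 acetylates the product, PGM3 moves its phosphate, and UAP1 joins it to UDP. OGT then transfers GlcNAc to serine and threonine residues of nuclear and cytoplasmic proteins, including chromatin proteins, and OGA removes it. GFPT2 is known from mesenchymal tumour cells, whereas GFPT1 is expressed broadly.

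GFPT2 lies on chromosome 5 (chr5:179727698-179780336, GRCh37, minus strand) and has 1 start site in the basic annotation. GFPT1 lies on chromosome 2 (chr2:69546912-69614382, minus strand). The 250 bases before the main start sites are shown as the sequence next to them. The ranks of SAP30, Pol II and the 2 marks came from the wider window of 1000 bp on either side. None of the best GFPT2 summits of these targets lay in the letters shown, and all parental ones lay past the start site. At GFPT1 the best parental Pol II summits lay in the letters shown, whereas those of SAP30 and the marks lay past the start site. Capitals mark the letters GGGCGG, which Sp1-like factors are known to bind, and CCAAT, on either strand.
GFPT2 promoter, chr5:179780337-179780586, minus strand, 5′ to 3′: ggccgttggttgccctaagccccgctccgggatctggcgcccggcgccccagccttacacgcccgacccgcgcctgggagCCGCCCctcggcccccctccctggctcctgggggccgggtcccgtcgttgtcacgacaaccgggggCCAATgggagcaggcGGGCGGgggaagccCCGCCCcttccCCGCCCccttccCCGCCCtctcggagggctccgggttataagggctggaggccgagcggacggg
GFPT1 promoter, chr2:69614360-69614609, minus strand, 5′ to 3′: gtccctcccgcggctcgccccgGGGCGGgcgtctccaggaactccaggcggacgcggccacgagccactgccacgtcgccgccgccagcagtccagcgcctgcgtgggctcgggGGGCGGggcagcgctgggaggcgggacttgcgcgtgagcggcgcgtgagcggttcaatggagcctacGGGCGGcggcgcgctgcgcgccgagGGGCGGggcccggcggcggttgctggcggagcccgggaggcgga
Both promoters were rich in G and C. The GFPT2 stretch had a GC content of 76.8% with 27 CpG dinucleotides, and the GFPT1 stretch 80.0% with 41. The median of 18878 protein-coding promoters of the same length was 63.6% with 18 CpG dinucleotides. GGGCGG occurred 5 times in the GFPT2 promoter, 4 times in the GFPT1 promoter and at least once in all 7 members, as in 60.1% of all promoters. CCAAT occurred in the GFPT2 and PGM3 promoters, as in 34.3% of all, with the GFPT2 copy starting at position -104 from the start site. Of the other letters searched, none of the 7 promoters held TATAAA (found in 9.13% of all promoters), CACGTG (found in 7.89%), TGANTCA (found in 4.71%), TGACGTGG (found in 0.694%), TGATGNAAT (found in 0.514%) or GGANTTNCC (found in 3.68%). CCGGAA occurred in PGM3 and OGT, as in 19.5% of all promoters, and GCATGCGC in OGT, as in 3.84%.

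Pol II was present at the GFPT2 promoter in parental cells and absent in SAP30-KO1 cells. Its rank was 27.2% in parental replicate 1 and 16.7% in parental replicate 2, with the summits 45 and 46 bp past the start site. Neither SAP30-KO1 list had a Pol II summit in the window or anywhere in the gene body, and the nearest summits lay 61119 and 61053 bp away, at the promoter of the neighbouring gene MAPK9. Among 11595 promoters with Pol II in both parental libraries, 270 (2.33%) had no Pol II peak in either SAP30-KO1 library, and 27 of 10825 (0.249%) gained one. GFPT2 was well ranked for a promoter of this kind. Its mean parental rank was 22% ± 7.42 (SD, n = 2), and the median mean rank of the 270 promoters was 68.2%. It was second of the 270 by mean rank, behind ENSG00000288654 at 16.7%, a gene named here after its values were seen. A total of 3794 genes, GFPT2 included, ranked at least as well as GFPT2 in both parental libraries. Of these, 3788 kept a Pol II peak in both SAP30-KO1 libraries and 5 in 1 of them, and GFPT2 was the 1 gene with a peak in neither. GFPT2 set this cut and was picked for its loss, so its place among these genes was fixed in advance. ENSG00000288654, at 10.8% and 22.6% in the parental libraries, fell outside the cut. The GFPT2 peak was also in 2 parental and 0 SAP30-KO1 lists with windows of 500 and 3000 bp and with all annotated start sites. The same held in the better-ranked 50% of each list and in lists cut to equal length. These outcomes were fixed by the distance of the nearest SAP30-KO1 summits and by the positions and ranks of the parental ones, so they are no further support.

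**Figure D1:**
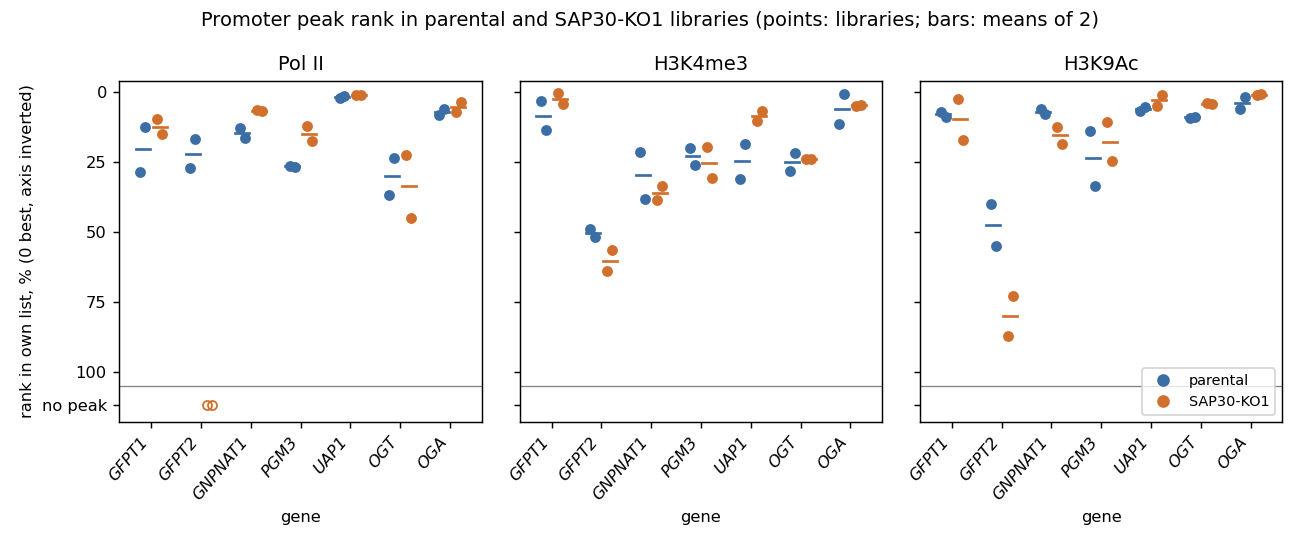
Rank of the best promoter peak in its own list (vertical axis, percent, inverted so that better ranks are higher) for the 7 genes, in parental (blue) and SAP30-KO1 (orange) libraries, with 1 point per library and bars at the means of 2 libraries. The open points below the line mark GFPT2, which had no Pol II peak in either SAP30-KO1 library. The H3K9Ac ranks of GFPT2 lie at 87.3% and 72.9% in SAP30-KO1 cells, below its parental points at 40.1% and 55.2%.

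The paralogue GFPT1 kept Pol II in both SAP30-KO1 libraries. Its ranks were 28.6% and 12.4% in parental cells and 9.54% and 15.1% in SAP30-KO1 cells. The groups overlapped, since 1 parental value lay between the 2 knockout values. The change, SAP30-KO1 minus parental, was -8.17 percentage points (SE 7.51), where a negative value is a better rank in the knockout. In limma's fit over 10706 genes with Pol II in all 4 libraries the adjusted p was 0.781. In parental cells GFPT1 and GFPT2 were close, with mean ranks of 20.5% ± 11.4 and 22% ± 7.42 (SD, n = 2 each), and their ranges overlapped.

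The other 5 members also kept Pol II at their promoters in both SAP30-KO1 libraries. GNPNAT1 had ranks of 12.8% and 16.3% in parental cells and 6.47% and 6.72% in SAP30-KO1 cells. PGM3 had 26.3% and 26.6% in parental cells and 12% and 17.6% in SAP30-KO1 cells. For both, the 2 groups did not overlap and the knockout ranks were the better ones. UAP1, whose Pol II summits lay 18 to 34 bp past the start site, was near the top of every list, with 2.1% and 1.25% in parental cells and 0.921% and 0.940% in SAP30-KO1 cells. OGA had 8.32% and 6.02% in parental cells and 7.13% and 3.46% in SAP30-KO1 cells. These groups overlapped for OGA and did not overlap for UAP1. OGT had the poorest mean Pol II rank of the members that kept a peak, with 36.9% and 23.4% in parental cells and 22.3% and 45.1% in SAP30-KO1 cells, and its knockout libraries spanned the parental ones.

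None of the 6 members passed limma's threshold of 0.05 for Pol II. The adjusted p-values ran from 0.687 for GNPNAT1 to 0.942 for OGT. The fit called 0 of 10706 genes (0%) at this threshold, and 731 genes had an unadjusted p below 0.05. The largest change among the members was that of PGM3, -11.7 points (SE 7.81, adjusted p = 0.723 by limma), and GNPNAT1 changed by -7.94 points (SE 3.26). The median change of the 6 members was -4.91 points beside 1.48 points over all genes tested, and 0 of the 6 ranked worse in both SAP30-KO1 libraries than in both parental libraries, as 24.2% of all genes did. The ranks of GNPNAT1, PGM3 and UAP1 were better in both SAP30-KO1 libraries, as those of 15.4% of all genes were. Without SAP30-KO1 replicate 1, the fit called 241 genes but none of the members, whose adjusted p-values without any 1 library were 0.310 or higher. Counting from the better-ranked member, the order in parental cells was UAP1, OGA, GNPNAT1, GFPT1, GFPT2, PGM3 and OGT. The replicate ranges separated UAP1 from OGA and OGA from GNPNAT1, whereas those of GNPNAT1 and GFPT1 and of GFPT1 and GFPT2 overlapped. GFPT2 and PGM3, and PGM3 and OGT, overlapped as well.

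The promoter peaks of 4 members cannot be assigned to 1 gene. The start site of RWDD2A, on the opposite strand, lay 92 bp from that of PGM3, and start sites of long noncoding RNAs lay 171 bp from GNPNAT1, 329 bp from OGA (KCNIP2-AS1) and 414 bp from UAP1 (UAP1-DT). Reads of the 2 genes of such a pair cannot be told apart in these lists. No start site of another gene lay within 1000 bp of GFPT2, GFPT1 or OGT, and the nearest one to GFPT2 was 60179 bp away.

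**Figure D2:**
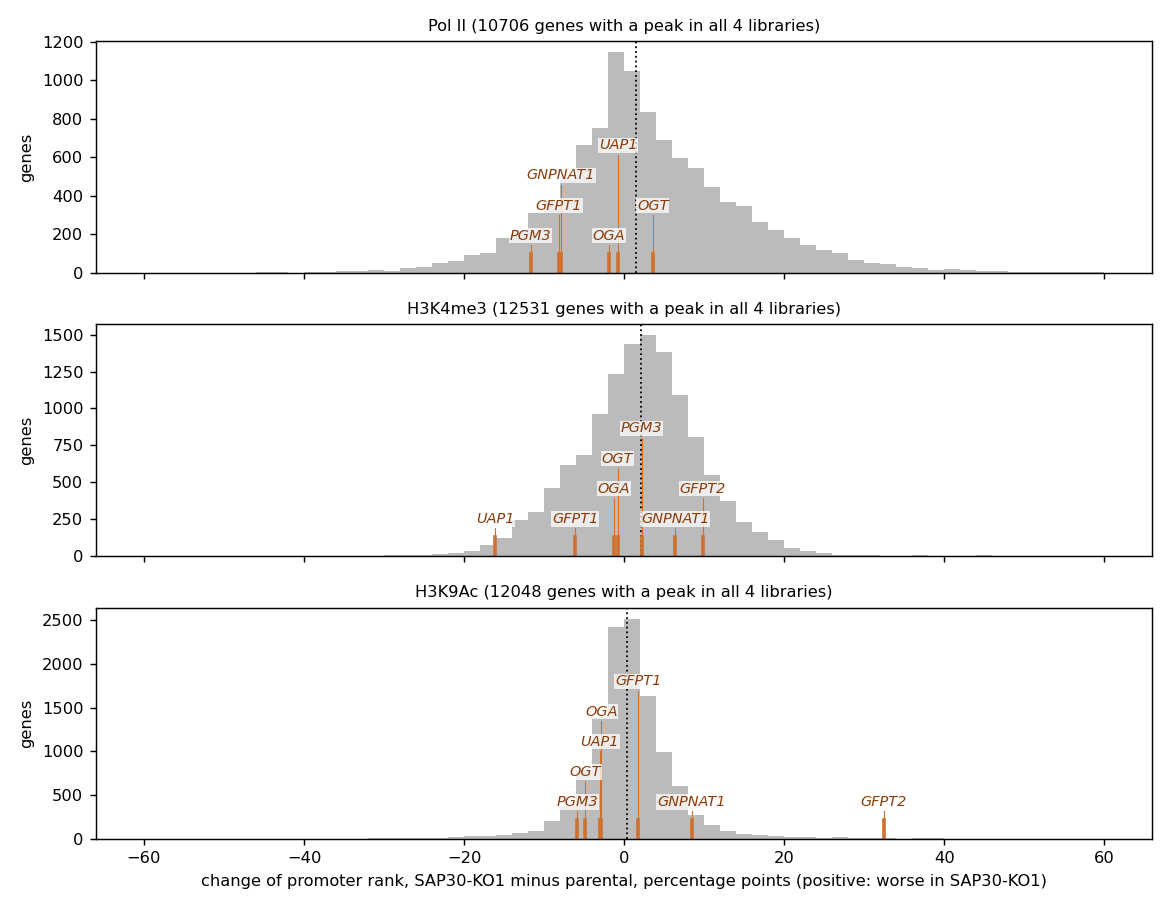
Change of promoter rank in SAP30-KO1 minus parental cells (horizontal axis, percentage points, positive for a worse rank in the knockout) over all genes with a peak in all 4 libraries (grey histogram, number of genes on the vertical axis, values beyond 60 points placed at 60), with the members marked in orange and the median dotted. GFPT2 is missing from the Pol II panel, since it had no knockout rank, and lies at 32.4 points in the H3K9Ac panel, farther right than the other members.

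H3K9Ac, a mark of active promoters, was present at all 7 promoters in all 4 libraries, with its ranks at GFPT2 the poorest of the members. At GFPT2 they were 40.1% and 55.2% in parental cells and 87.3% and 72.9% in SAP30-KO1 cells. Both knockout ranks were worse than both parental ones, and the change was 32.4 points (SE 17.4). This change was larger than that of 99.7% of the 12048 genes tested, whose median was 0.309 points. It did not pass limma's threshold (adjusted p = 0.690), and leaving out any 1 library gave changes of 24.9 to 40.0 points with adjusted p-values of 0.597 to 0.882. When ranks were taken among only the genes with a peak in all 4 libraries, the change was 3.22 points (limma, adjusted p = 0.718). The best summit moved between libraries, from 604 and 423 bp past the start site in parental cells to 349 bp past it in SAP30-KO1 replicate 1 and 644 bp before it in replicate 2. With a window of 500 bp the GFPT2 peak was in 1 parental and 1 SAP30-KO1 library, so no change could be fitted.

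The paralogue did not show this pattern. GFPT1 had H3K9Ac ranks of 7.04% and 8.79% in parental cells and 2.27% and 17.1% in SAP30-KO1 cells, which spanned the parental values, and its change was 1.76 points (SE 4.39, adjusted p = 0.950 by limma). GNPNAT1 ranked worse in both SAP30-KO1 libraries, at 12.4% and 18.4% against 6.17% and 7.71% in parental cells. OGT moved the other way, from 9.08% and 8.76% to 3.91% and 4.21%, without overlap. UAP1, at 6.55% and 5.28% in parental cells and 4.85% and 0.823% in SAP30-KO1 cells, and OGA, at 5.86% and 1.55% against 0.971% and 0.714%, also had better ranks in both knockout libraries. PGM3 had 13.8% and 33.4% in parental cells and 10.8% and 24.6% in SAP30-KO1 cells, and its groups overlapped.

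In all, 2 of 7 members had worse H3K9Ac ranks and 3 of 7 better ranks in both SAP30-KO1 libraries, beside 22.1% and 16.4% of all genes tested. The median change of the 7 was -2.87 points. limma called 1 of 12048 genes (0.00830%), which was not a member, and the adjusted p-values of the members ran from 0.672 to 0.950. H3K9Ac promoter peaks were lost at 85 of 12336 genes (0.689%) and gained at 66 of 12276 (0.538%), and none of the members was among them. In parental cells OGA, UAP1, GNPNAT1, GFPT1 and OGT had mean ranks between 3.71% and 8.92%. PGM3 at 23.6% ± 13.9 and GFPT2 at 47.7% ± 10.7 (SD, n = 2 each) ranked behind these 5, without overlap of the replicates.

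H3K4me3, the mark of promoter start regions, stayed at all 7 promoters in SAP30-KO1 cells. At GFPT2 its ranks were 48.9% and 51.9% in parental cells and 64.0% and 56.5% in SAP30-KO1 cells. Both knockout ranks were worse, as for 28.1% of the 12531 genes tested, and the change was 9.81 points (SE 3.83, adjusted p = 0.392 by limma). Without SAP30-KO1 replicate 2 the change was 13.6 points and passed the threshold (limma, adjusted p = 0.0364), and the single knockout library was then assumed to vary like the parental ones. With ranks among only the genes with a peak in all 4 libraries the change was 3.70 points. Over the other alternatives the adjusted p lay between 0.350 and 0.957.

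GFPT1 was among the best-ranked H3K4me3 promoters, with 3.25% and 13.6% in parental cells and 0.436% and 4.09% in SAP30-KO1 cells. These groups overlapped, and the change was -6.14 points (SE 4.61, adjusted p = 0.715 by limma). UAP1 had the largest H3K4me3 change among the members, from 30.9% and 18.4% in parental cells to 10.4% and 6.64% in SAP30-KO1 cells. Its change of -16.1 points (SE 9.14, adjusted p = 0.621 by limma) was lower than that of all but 1.15% of the genes tested. The groups did not overlap, and the knockout ranks were better, as for 11.5% of all genes.

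The other 4 members had overlapping H3K4me3 ranks. OGA had 11.5% and 0.610% in parental cells and 5.00% and 4.45% in SAP30-KO1 cells. OGT had 28.1% and 21.6% in parental cells and 24.0% in each SAP30-KO1 library. PGM3 had 19.8% and 26.2% against 19.7% and 30.7%, and GNPNAT1 had 21.4% and 38.2% against 38.6% and 33.7%. The median change of the 7 members was -0.825 points beside 2.09 over all genes tested. limma called 96 of 12531 genes (0.766%), 94 of them worse and 2 better in SAP30-KO1 cells, and none was a member. H3K4me3 peaks were lost at 184 of 12825 promoters (1.43%) and gained at 21 of 12619 (0.166%), also without a member. As for the promoters that lost Pol II as a whole, 233 of the 270 kept H3K4me3 in all 4 libraries, and at 121 of these (51.9%) both knockout ranks were worse, beside 28.1% of all genes tested. H3K9Ac was in all 4 libraries at 226 of the 270, and both knockout ranks were worse at 74 (32.7%), beside 22.1% of all genes tested. GFPT2 was counted in each of these numbers. The median mean parental Pol II rank of the 270 was 68.2%, beside 25.5% over all promoters with Pol II in both parental libraries. The shares were not matched for parental rank.

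SAP30 was present at all 7 promoters in both libraries, as at 12298 of 20098 genes (61.2%). The ranks at GFPT2, 31.1% and 38.7%, were the poorest of the members and did not overlap those of any other. GFPT1 had 2.24% and 4.60%, OGT 2.44% and 4.83%, and GNPNAT1 5.63% and 3.22%. UAP1 had 5.75% and 12.5%, OGA 12.7% and 17.5%, and PGM3 20.2% and 14%. SAP30 ranked better at the promoter of GFPT1 than at that of GFPT2, and 84.1% of the promoters with SAP30 in both libraries had a better mean rank than GFPT2. A relation of SAP30 rank to the loss of Pol II was not tested.

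SIN3A, a scaffold of the complex, was not listed at GFPT2. Its nearest SIN3A summits lay 60745 and 60724 bp away. SIN3A was also missing at OGA in both libraries and at PGM3 in replicate 2, with a rank of 26.4% in replicate 1. The 4 members with SIN3A in both libraries were OGT at 4.23% and 3.93%, GNPNAT1 at 21.7% and 3.14%, UAP1 at 22.4% and 20.9%, and GFPT1 at 34.6% and 23.9%. Over the genome, SIN3A was in both libraries at 6150 of 12049 promoters (51.0%) that had SAP30 and H3K4me3 in both parental libraries. The SIN3A lists were the shortest of the series, with 11115 and 10861 summits.

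SIN3B, the paralogue of SIN3A, was listed at all 7 promoters, and at GFPT2 only weakly. Its ranks there were 98.3% and 70.6%, with the summits 383 bp past and 402 bp before the start site. PGM3 followed with 46.4% and 37.8%. UAP1 had 22.7% and 34.8%, GFPT1 29.9% and 19.4%, and GNPNAT1 23.3% and 23%. OGT, at 12.4% and 6.21%, and OGA, at 6.36% and 7.93%, had the best SIN3B ranks. OGA thus combined a high SIN3B rank with no listed SIN3A. SIN3B was in both libraries at 83.5% of the 12049 promoters with SAP30 and H3K4me3, and 99.4% of the promoters with SIN3B in both libraries had a better mean rank than GFPT2.

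**Figure D3:**
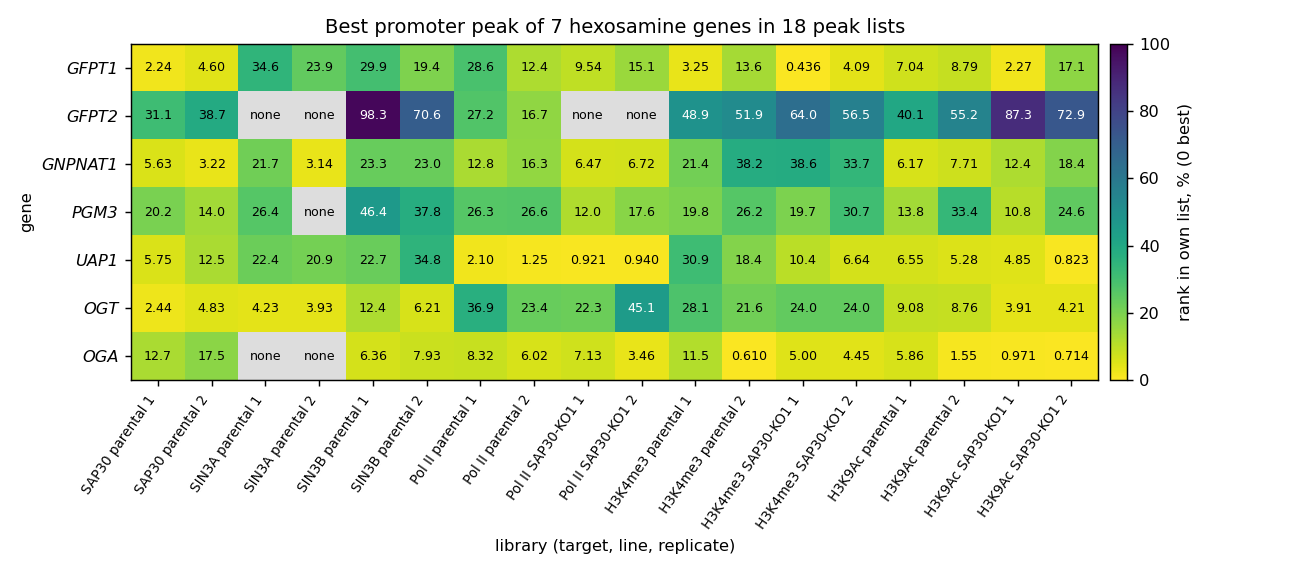
Rank of the best promoter peak of each of the 7 genes (rows) in each of the 18 lists (columns, by target, line and replicate), from 0% (yellow, best) to 100% (dark) of the list, with grey cells where no summit lay within 1000 bp. The row of GFPT2 is the darkest for SIN3B and both histone marks and has 4 grey cells, and 119 of the 126 cells hold a peak.

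SAP30 was also found inside 4 of the 7 genes, and the share of all genes with SAP30 inside them was not computed. Of 12961 sites with a SAP30 summit of both libraries within 500 bp of each other and no basic start site within 1000 bp, 6 lay in member genes, with 2 each in GFPT2 and OGT and 1 each in PGM3 and OGA. The GFPT2 site 22426 bp past the start site had SAP30 ranks of 35.0% and 34.9%, close to those of the GFPT2 promoter, and the median ranks of all such sites were 55.7% and 58.9%. SIN3B summits lay within 1000 bp of it in both libraries, at 46.4% and 70.6%, as at 23.6% of all such sites, and SIN3A was not listed there. Its sequence is shown because the SAP30 summits that define the site lay in it, away from the main start site. The SIN3B and H3K9Ac summits lay within 1000 bp of the site but outside the letters shown. Capitals mark TGANTCA, the letters bound by AP-1 factors, and CCAAT.
GFPT2 internal SAP30 site, chr5:179757810-179758009, GRCh37, minus strand, 5′ to 3′: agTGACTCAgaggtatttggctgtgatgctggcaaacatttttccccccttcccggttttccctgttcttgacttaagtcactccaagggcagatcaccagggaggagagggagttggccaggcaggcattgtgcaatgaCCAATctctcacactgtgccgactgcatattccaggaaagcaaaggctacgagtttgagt
The window covers 175 bases of intron 5 and, at its 3′ end, 25 coding bases of exon 6 of the main transcript, which has 19 exons. Start sites of 2 shorter GFPT2 transcripts outside the basic annotation, at positions 179757934 and 179758648, lie within 1000 bp of it. The letters TGANTCA occurred in windows of this length at 34.6% of the 12961 SAP30 sites, and CCAAT at 16.8%.

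H3K9Ac at this GFPT2 site was listed in both parental libraries, with best ranks of 41.1% and 45.7% within 1000 bp. In SAP30-KO1 cells it was absent from replicate 1 and had a rank of 92.7% in replicate 2. At 8512 of the 12961 sites H3K9Ac was in both parental libraries, and at 2676 of these (31.4%) it was worse or absent in both SAP30-KO1 libraries. No H3K4me3 summit was listed there, and Pol II was listed once, at 98.0% in parental replicate 1. The second GFPT2 site, 19405 bp past the start site, had SAP30 ranks of 60.5% and 67.9% and none of the other targets.

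**Figure D4:**
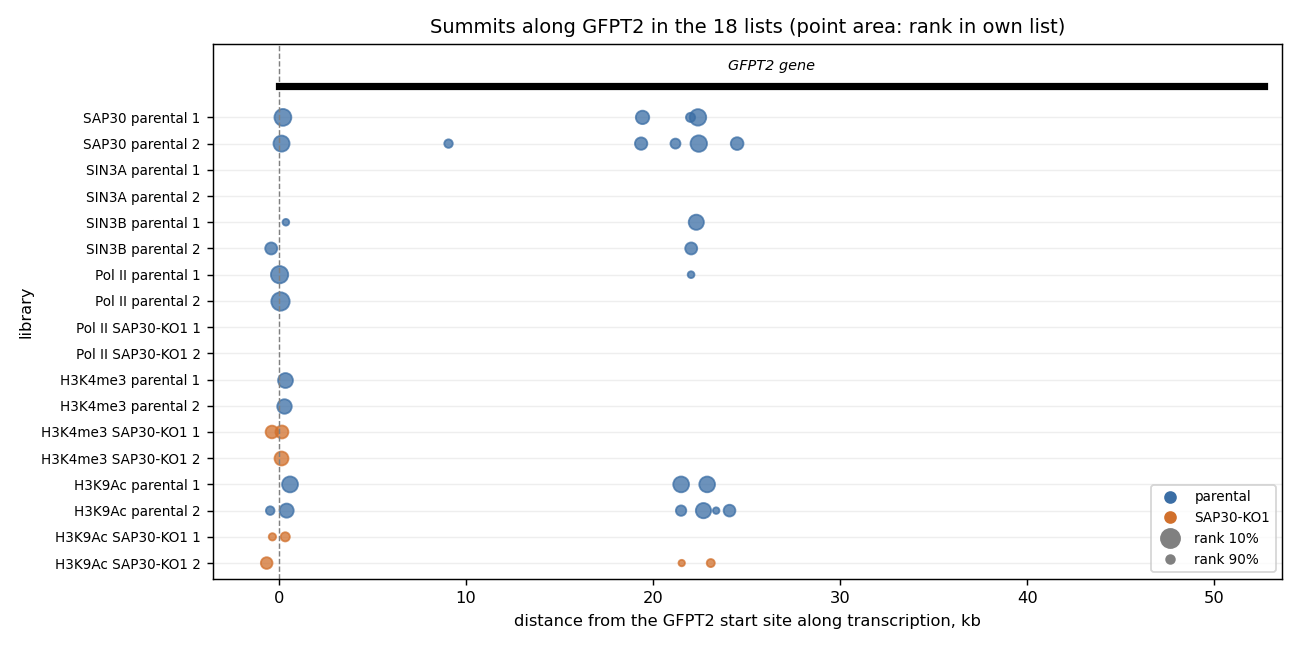
Summits along GFPT2 (horizontal axis, kb from the main start site in the direction of transcription) in each of the 18 lists (rows), with point area falling from the best to the last rank of the list, parental libraries in blue and SAP30-KO1 libraries in orange. The rows for Pol II in SAP30-KO1 cells are empty, and the SAP30, SIN3B and parental H3K9Ac rows have points both at the start site and near 22.4 kb.

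The internal sites of the other members had poorer SAP30 ranks than the GFPT2 site 22426 bp past the start site. Those of the second GFPT2 site, 60.5% and 67.9%, overlapped theirs. In OGT, a site 3224 bp past the start site had SAP30 ranks of 62.6% and 87.9%, with H3K4me3 in 1 parental library at 71.2% and in both SAP30-KO1 libraries at 72.3% and 66.4%. H3K9Ac there was at 76.3% and 65.3% in parental cells, and at 91.0% in SAP30-KO1 replicate 1 and absent from replicate 2. A second OGT site, 8122 bp past the start site, had SAP30 ranks of 68.0% and 61.4%, with H3K9Ac at 76.3% and 91.8% in parental cells and in neither SAP30-KO1 library. The PGM3 site, 9488 bp past the start site, had SAP30 ranks of 81.5% and 64.3%, with H3K9Ac in replicate 1 of each line, at 66.5% and 78.8%. The OGA site, 3030 bp past the start site, had SAP30 ranks of 93.1% and 66.4% and SIN3B at 63.2% and 26.0%. GFPT1, GNPNAT1 and UAP1 had no such site.

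The neighbours of GFPT2 kept Pol II. MAPK9, a stress kinase gene whose start site lies 61237 bp downstream, had Pol II ranks of 29.3% and 25.6% in parental cells and 36.0% and 19.4% in SAP30-KO1 cells. CNOT6, a deadenylase gene 141043 bp away on the other side, had 18.9% and 21.6% in parental cells and 18.2% and 17.0% in SAP30-KO1 cells. The MAPK9 groups overlapped, and CNOT6 was slightly better ranked in both knockout libraries. H3K9Ac at MAPK9 had ranks of 10.7% and 13.0% in parental cells and 5.48% and 5.18% in SAP30-KO1 cells, a difference in the opposite direction from that at GFPT2.

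Of 16 genes that feed or salvage GlcNAc, 15 had Pol II in all 4 libraries and RENBP, the renin-binding epimerase, in none, so no peak was lost or gained. SAP30 was at 15 of their promoters, SIN3B at 14 and SIN3A at 10 in both libraries, beside 61.2%, 51.7% and 31.5% of all genes. None passed limma's threshold for Pol II, H3K4me3 or H3K9Ac, with the lowest adjusted p at 0.630. For Pol II, 4 ranked worse and 3 better in both SAP30-KO1 libraries, beside 24.2% and 15.4% of all genes, with a median change of 0.418 points over the 15. The largest Pol II change was that of GLUL, glutamine synthetase, with 35.2% and 30.3% in parental cells and 35.1% and 94.4% in SAP30-KO1 cells. It rested on SAP30-KO1 replicate 2, since the other knockout value lay within the parental range. GLUL also had the largest H3K9Ac change, with 24.8% and 21.5% in parental cells against 29.5% and 33.1% in SAP30-KO1 cells. GNPDA2, a glucosamine phosphate deaminase that runs against the GFPT step, had the largest H3K4me3 change, 13.1 points (SAP30-KO1 minus parental).

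Among 14 genes that use UDP-GlcNAc, HAS2 lost Pol II as GFPT2 did. HAS2 encodes a hyaluronan synthase, which polymerises UDP-GlcNAc and UDP-glucuronic acid. Its Pol II ranks were 71.2% and 63.6% in parental cells, with no peak in either SAP30-KO1 library. Its H3K4me3 ranks were 54.4% and 55.7% in parental cells and 69.2% and 60.7% in SAP30-KO1 cells, a change of 9.92 points (adjusted p = 0.395 by limma), close to that of GFPT2. H3K9Ac was listed at HAS2 in SAP30-KO1 replicate 1 alone, at 23.8%. Like GFPT2, HAS2 had SAP30 and SIN3B but not SIN3A in both libraries. Of the 270 promoters that lost Pol II, 236 had SAP30, 85 SIN3B and 18 SIN3A in both libraries. Over all 20098 genes, those without Pol II included, the shares were 61.2%, 51.7% and 31.5%. The shares among promoters with Pol II in both parental libraries, from which the 270 were drawn, were not computed. These numbers therefore show neither an excess nor a deficit. HAS2 was the 1 loss among the 13 promoters of the list with Pol II in both parental libraries, beside 2.33% of all promoters with Pol II in both. The other 12 kept Pol II, and 5 of them ranked worse and 0 better in both SAP30-KO1 libraries, beside 24.2% and 15.4% of all genes. EOGT, the O-GlcNAc transferase of the secretory pathway, had the largest Pol II change, with 28.5% and 17.6% in parental cells and 45.9% and 46.4% in SAP30-KO1 cells, a change of 23.1 points (adjusted p = 0.687 by limma). B3GNT2, a GlcNAc transferase of poly-lactosamine chains, had the largest H3K9Ac change, 5.06 points (SAP30-KO1 minus parental). None of the 14 passed the threshold for any of the 3 targets.

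The genes whose ranks over the 18 lists were most like those of GFPT2, with a missing peak set to 100%, were SLCO4C1, KCTD17, SVIP, HES2 and THEMIS2. Their mean absolute differences from GFPT2 were 8.68, 8.82, 9.81, 10.2 and 10.5 points, against a median of 35.6 points over all other genes. Since the measure includes the Pol II lists that chose GFPT2, this is a description. In SLCO4C1 and SVIP the Pol II peak was also absent from both SAP30-KO1 libraries, with parental ranks of 51.1% and 42.7% for SLCO4C1 and 47.4% and 46.3% for SVIP. KCTD17, HES2 and THEMIS2 each had a Pol II peak in SAP30-KO1 replicate 1 and none in replicate 2. GFPT1 differed from GFPT2 by 51.4 points, and 43 genes, GFPT2 included, had peaks in the same 14 of the 18 lists.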

How the data were processed

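ChIP-Seq summit lists of SAP30, SIN3A and SIN3B (parental) and of Pol II, H3K4me3 and H3K9Ac (parental and SAP30-KO1 MDA-MB-231) were grouped by antibody and line as labelled, with 2 libraries per group. Another 12 samples were not analysed here. The deposited intervals are 1 bp wide, and the authors' score was read as the −log10 of the q-value, with 1.30 as its lowest value. Peaks were called in each library by itself. The submitters' notes name hg19, FastQC 0.11.2, Bowtie2 2.3.3.1, Picard and MACS2 2.1.0. Depth, filters and the control of each list are not given in the sources used here. No list had a summit past the end of a GRCh37 chromosome, and replicate lists shared 0.287% to 1.24% of summit positions exactly.

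GENCODE release 44, lifted to GRCh37, gave the start sites, of which the basic set was used. Promoter ranks of genes with a peak in all 4 libraries of a target were compared with limma 3.58.1 (R 4.3.3, lmFit and eBayes with a variance trend) and adjusted by Benjamini-Hochberg over all genes tested. The fit was tested on simulated data. Promoter sequences were read from GRCh37, and the letters given above were searched on both strands, where overlapping copies were counted. A protein comparison was not made.

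The members, the lists of genes and the sites inside genes were chosen with earlier results of these data known. Named beside the 7 members were genes of the 2 lists that lost or gained a peak, passed the threshold or had the largest change for a target, the 5 genes most like GFPT2, and its neighbours. Windows, start sites, list cuts, rank transforms, a replicate block and leaving out each library were tried as alternatives.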

Additional observations from a re-analysis of the deposited data

How the results depend on the processing

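With 2 libraries per group and unknown depth, a missing summit says that no peak passed the authors' threshold, not that the protein was absent, and no interval can be given for it. GFPT2 lost its Pol II peak under every window, set of start sites and list cut tried, which its summit positions and parental ranks fixed in advance. Of 238 changes of the members refitted under an alternative, 224 kept their direction and their side of the threshold, 1 newly passed it (H3K4me3 at GFPT2, 13.6 points without SAP30-KO1 replicate 2) and 13 changed direction, none of which passed the threshold either way. The reversed values were 0.181 (inverse-normal) and 1.65e-03 (log2 score) for H3K4me3 at OGA and -0.0626 (inverse-normal) for H3K9Ac at GFPT1. Leaving out 1 library gave ranges of changes that cross 0 for Pol II at OGT (-7.86 to 15), for H3K4me3 at GNPNAT1 (-2.04 to 14.8), PGM3 (-3.31 to 7.67), OGT (-4.08 to 2.43) and OGA (-6.73 to 4.11), and for H3K9Ac at GFPT1 (-5.65 to 9.18) and PGM3 (-15.7 to 3.93).

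Over all genes, windows of 500 and 3000 bp and the better-ranked 50% of each list gave 92, 17 and 76 gained Pol II peaks against 27. The windows of 500 and 3000 bp gave 72 and 8 gained H3K4me3 peaks against 21. The 500 bp window gave 143 lost and 132 gained H3K9Ac peaks against 85 and 66, and the better-ranked 50% gave 41 gained. H3K4me3 calls numbered 61 with the inverse-normal transform, 48 with the 500 bp window and 0 without a variance trend, against 96. H3K9Ac calls numbered 0 in place of 1 with ranks among genes with a peak in all 4 libraries, with either window, with missing peaks set to 100% and without a variance trend. Leaving out 1 library gave 345 to 732 lost and 61 to 87 gained Pol II peaks and 0 to 241 calls, with the highest numbers of losses and calls without SAP30-KO1 replicate 1. It gave 43 to 62 gained H3K4me3 peaks and 17 to 261 calls, the most without SAP30-KO1 replicate 2, and 155 to 218 lost and 122 to 150 gained H3K9Ac peaks and 6 to 13 calls. A lost or gained peak had to be in both libraries of 1 line and in neither of the other. Leaving out a library drops 1 of these conditions, so the counts of lost and gained peaks could not fall. The cause of the other differences was not tested. With a replicate block, limma called 0 Pol II, 80 H3K4me3 and 1 H3K9Ac promoters, no member among them. With the targets in this order, rank deviations of same-numbered libraries correlated at 7.45e-03, -0.0190 and -0.0136, so no shared replicate effect was visible. The labels do not say whether same-numbered libraries were prepared together, and a correlation of ranks cannot decide it.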
